A study of Homo sapiens with 12 samples.

Results

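Cells hold water against a concentrated medium by keeping compatible osmolytes, small organic molecules such as sorbitol, myo-inositol, taurine and betaine. The genes described here are 8 that make, import or use these molecules, or that regulate them. They were listed by symbol and looked up in a table of 16389 genes from HepG2 cells, an established human liver cancer line. A row was found for 7 of the 8: NFAT5, AKR1B1, SORD, SLC6A6, SLC6A12, CHDH and BHMT. SLC5A3, the sodium/myo-inositol cotransporter gene, is not analysed here. The list was chosen by function with earlier fold changes of these data in view, among them the fall of SLC6A12 in high glucose, so that change is given as a description without a test.

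The RNA-seq data came from 12 libraries in 4 groups of 3. LG cells were kept in medium with 5.5 mM glucose, and HG cells were moved to 20 mM for 48 h. LGV and HGV cells had the same media and then received 1 mM valproic acid (VPA), a histone deacetylase inhibitor, for 12 h. The labels do not state whether the cells without VPA were harvested before or after those 12 h. All cells came from the HepG2 line at passage 9, so the groups share a single genetic background. HG medium held 14.5 mM more glucose than LG medium, and the labels name no osmotic control such as mannitol, so glucose itself and the osmolarity it adds cannot be told apart. Nothing in the labels says that the replicates were separate cultures, so the p-values measure only the spread between these libraries, which may be technical.

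As background, the polyol pathway turns glucose into sorbitol through aldose reductase (AKR1B1) and sorbitol into fructose through sorbitol dehydrogenase (SORD). Taurine enters cells through the transporter encoded by SLC6A6, and betaine and GABA through that of SLC6A12. In liver and kidney betaine is also made from choline by choline dehydrogenase (CHDH), and betaine-homocysteine methyltransferase (BHMT) spends it to remake methionine. NFAT5, also called TonEBP, is the transcription factor of the hypertonic response, and AKR1B1, SLC5A3, SLC6A6 and SLC6A12 are among its textbook targets.

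Between 29798442 and 45572694 reads per library were counted on genes. Levels are given as CPM, counts scaled to the library total with TMM factors, which ran from 0.879 to 1.09. A count of 3 reads, taken as the floor, stood for 0.0713 to 0.112 CPM and covers counting error only. The lowest count of any of the 7 genes in any library was 26, and all 7 passed the filter on low counts in each comparison. All 8 hepatocyte markers looked for were present, with ALB from 18946 to 29437 CPM in the 12 libraries. Of 9 markers of fibroblasts, leukocytes and endothelial cells 4 had a row, and apart from LYZ (908 to 1545 CPM) none exceeded 3.85 CPM. The summed level of the hepatocyte markers was lower in LGV, from 36499 to 37159 CPM, than in the other groups, from 41320 to 54919 CPM, and its part in the LGV results was not tested. In bulk libraries such as these, fewer cells with a transcript and less of it per cell cannot be told apart.

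**Figure D1:**
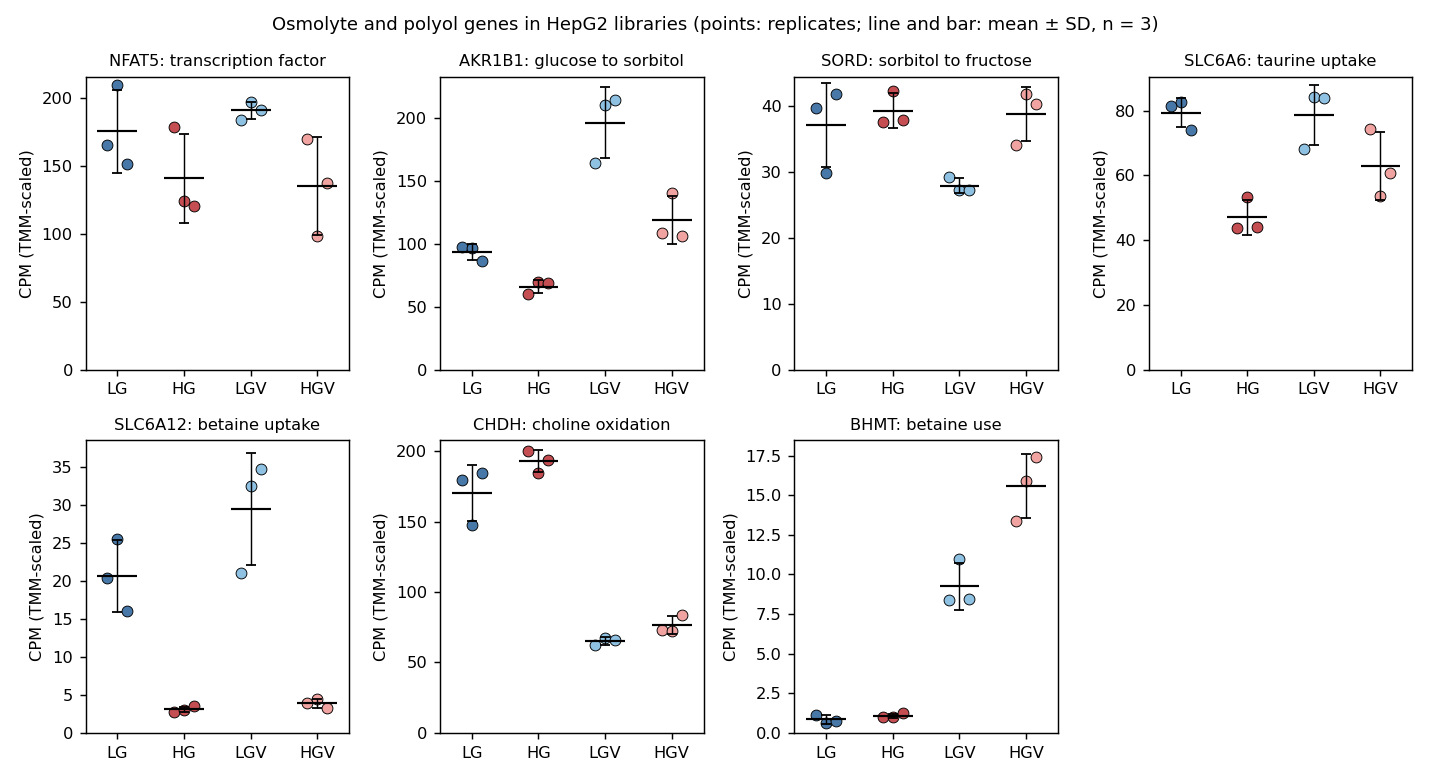
Levels of the 7 genes in CPM (vertical axes, each from 0) in the 3 libraries of LG, HG, LGV and HGV (horizontal axes), with points for libraries and lines and bars for the mean ± SD. SLC6A12 stood at 16.0 to 34.8 CPM in low glucose and at 2.79 to 4.45 CPM in high glucose, while BHMT stood at 0.649 to 1.23 CPM without VPA and at 8.40 to 17.4 CPM with it.

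AKR1B1 and SLC6A12 were lower in high glucose with and without VPA, SLC6A12 without VPA as a description, and SLC6A6 was lower without VPA. BHMT and AKR1B1 rose with VPA while CHDH fell. In HG against LG, leaving aside SLC6A12, 2 of the other 6 genes passed at an FDR of 0.05 or less, AKR1B1 and SLC6A6, both lower, where 24.7% of the 15452 genes tested passed, 12.0% higher and 12.7% lower. In HGV against LGV 5 of 7 passed, with SORD and BHMT higher and NFAT5, AKR1B1 and SLC6A12 lower, against 40.7% of 16208 genes (21.2% higher, 19.5% lower). In LGV against LG 5 of 7 passed, with AKR1B1, SLC6A12 and BHMT higher and SORD and CHDH lower, against 41.6% of 15944 genes (21.7% higher, 19.9% lower). Leaving out LG replicate 1, LG replicate 3, LGV replicate 2 or LGV replicate 3 left 3 of these 5. In HGV against HG 4 of 7 passed, with AKR1B1, SLC6A6 and BHMT higher and CHDH lower, against 46.1% of 16188 genes (25.8% higher, 20.2% lower). With so many genes called in the VPA comparisons, the counts alone do not set the 7 genes apart. The groups did not overlap for 3 of the same 6 genes in HG against LG, where 41.2% of all genes tested behaved so, for 6 of 7 in HGV against LGV (51.4%), for 4 of 7 in LGV against LG (50.5%) and for 4 of 7 in HGV against HG (54.6%). The median log2 fold change of the 7 genes, SLC6A12 included, was -0.30 in HG against LG and -0.34 in HGV against LGV, beside 0.01 over all genes tested in both. The fall of SLC6A12 was known when the genes were listed, so these medians are only a description. The other 6 genes went both ways. In HG against LG SLC6A6, AKR1B1 and NFAT5 had -0.73, -0.48 and -0.30, and SORD, CHDH and BHMT 0.10, 0.20 and 0.40. In HGV against LGV AKR1B1, NFAT5 and SLC6A6 had -0.74, -0.52 and -0.34, and CHDH, SORD and BHMT 0.21, 0.45 and 0.73. The median of the 7 genes was 0.13 in LGV against LG and 0.33 in HGV against HG, beside -0.01 and 0.02 over all genes.

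**Figure D2:**
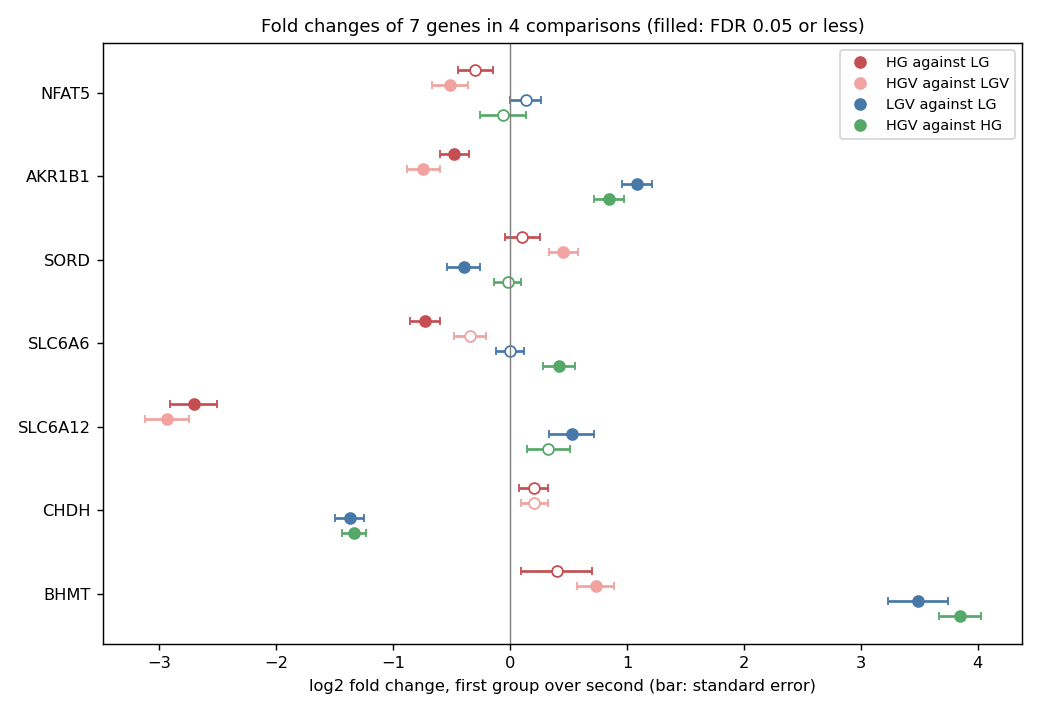
Log2 fold changes (horizontal axis, bars for the standard error) of the 7 genes (vertical axis) in the 4 comparisons, filled where the FDR was 0.05 or less. SLC6A12 lay at -2.71 and -2.93 in the glucose comparisons, the first as a description, and BHMT at 3.49 and 3.85 in the VPA comparisons, where CHDH lay at -1.37 and -1.34.

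NFAT5 (ENSG00000102908, chromosome 16 of GRCh37 from 69598997 to 69738569, plus strand) had 165, 210 and 151 CPM in LG and 179, 124 and 120 CPM in HG. With VPA it had 184, 197 and 192 CPM in LGV and 170, 98.2 and 138 CPM in HGV. The LG and HG ranges overlapped, whereas each HGV library lay below each LGV library. The log2 fold change of HGV against LGV was -0.52 (standard error 0.16, FDR 0.0139), and that of HG against LG, -0.30 (standard error 0.15, FDR 0.161), did not pass. The latter passed without HG replicate 1 (-0.48, FDR 0.0441) and was closer to 0 without HG replicate 3 (-0.16) or LG replicate 2 (-0.12). VPA gave 0.13 in low glucose (FDR 0.451, or 0.30 with an FDR of 0.0445 when scaled by library size) and -0.06 in high glucose (FDR 0.821). The call in HGV against LGV was lost when library sizes replaced TMM factors (-0.42, FDR 0.0622), and without HGV replicate 2 the value was -0.33 (FDR 0.0456).

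The exons of NFAT5 cover 20275 bases, and libraries differed in their levels of long genes. The median log2 deviation of genes with exons of at least 12067 bases, minus that of genes with exons of at most 2047 bases, ran from -0.36 in HGV replicate 2 to 0.18 in LGV replicate 3. It was -0.24 in HG replicate 3 and -0.12 in HG replicate 2. These 3 libraries with the lowest values were also the 3 with the lowest NFAT5. The part of this difference in the NFAT5 result was not tested. The exons of an unnamed lncRNA (ENSG00000260772) cover 7.83% of the NFAT5 exons on the same strand.

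AKR1B1, which reduces glucose to sorbitol, was lower in high glucose and higher with VPA. It lies on chromosome 7 of GRCh37 from 134127108 to 134144036 on the minus strand (ENSG00000085662). Its level was 97.3, 96.9 and 86.2 CPM in LG and 59.9, 69.3 and 68.9 CPM in HG. With VPA it reached 164, 211 and 214 CPM in LGV and 109, 141 and 106 CPM in HGV. No pair of groups overlapped, and the order was LGV, HGV, LG and HG from the highest down. High glucose lowered it by 1.39-fold without VPA (log2 fold change -0.48, standard error 0.12, FDR 0.00925) and by 1.67-fold with VPA (-0.74, standard error 0.14, FDR 0.000473). VPA raised it by 2.12-fold in low glucose (1.08, standard error 0.13, FDR 1.17e-05) and by 1.8-fold in high glucose (0.85, standard error 0.12, FDR 0.000135). Without LG replicate 1 the comparison of HG with LG gave -0.43 with an FDR of 0.0508, and the other 3 calls held under every alternative tried. Among 50-base windows of its exons 9.93% occurred elsewhere in the genome.

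SORD, the dehydrogenase of the next step, changed little with glucose in the absence of VPA. It had 39.8, 29.8 and 41.8 CPM in LG, 37.6, 42.3 and 37.8 CPM in HG, 29.2, 27.3 and 27.3 CPM in LGV and 34.1, 41.8 and 40.3 CPM in HGV. The LGV libraries were the lowest of the 12, with LG replicate 2 next to them. HGV was 1.37-fold above LGV (0.45 in log2, standard error 0.12, FDR 0.00700) under every alternative tried. HG against LG gave 0.10 (FDR 0.637) and HGV against HG -0.02 (FDR 0.907). LGV was lower than LG by the test (-0.40, standard error 0.14, FDR 0.0341), and this call was lost in 7 of the 15 alternatives, with library sizes at -0.24 (FDR 0.259) and with all but 1 of the 6 omissions of a library. SORD lies on chromosome 15 from 45315345 to 45369383 on the plus strand (ENSG00000140263). Of the 50-base windows of its exons 60.1% occur elsewhere in GRCh37 without a mismatch, where a near-identical pseudogene copy exists, so its counts are uncertain.

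The list of the sorbitol and fructose route, with related aldo-keto reductase genes, held 7 further genes with a row. Of the 9 symbols listed, DAK and TKFC name the same gene. In HG against LG 3 of these 7 rose and 2 fell (71.4% called, beside 24.7% of all genes). In HGV against LGV 4 rose and 2 fell (85.7% beside 40.7%). The 2 that fell in each were AKR1B10 and AKR1B15, described below. With VPA none rose and 5 fell in low glucose (71.4% beside 41.6%), and 1 rose and 2 fell in high glucose (42.9% beside 46.1%). Beside the medians over all genes given above, the median log2 fold change of these 7 was 0.04 in HG against LG, 0.44 in HGV against LGV, -0.84 in LGV against LG and -0.61 in HGV against HG. Ketohexokinase (KHK), which phosphorylates fructose, had means of 44.4 CPM in LG and 62.2 CPM in HG (log2 fold change 0.52, FDR 0.0196). With VPA its means were 44.6 CPM in LGV and 101 CPM in HGV (1.16, FDR 3.02e-06). In high glucose KHK was higher with VPA than without it (0.69, FDR 0.000932). The triokinase gene DAK, renamed TKFC in newer annotation, was higher in HG by 1.11 (FDR 0.000324) and in HGV over LGV by 0.91 (FDR 2.21e-05), and it was lower with VPA by -0.90 in low and -1.06 in high glucose. GLYCTK, the glycerate kinase gene, rose in HG by 0.68 (FDR 0.0282) and in HGV over LGV by 1.49 (FDR 8.89e-07). It was lower with VPA in low glucose (-0.84, FDR 0.0158), from a mean of 37.6 CPM in LG to 20.9 CPM in LGV. Its means in high glucose were 59.0 CPM in HG and 59.6 CPM in HGV (0.01, FDR 0.934).

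AKR1B10 and AKR1B15 are aldo-keto reductase genes next to AKR1B1 on chromosome 7, on the plus strand from 134212319 to 134226164 and from 134233862 to 134264627. Both fell in high glucose, as AKR1B1 did. AKR1B10 had a mean of 66.1 CPM in LG and 22.3 CPM in HG (-1.55, standard error 0.15, FDR 1.05e-06), and AKR1B15 a mean of 2.28 CPM in LG and 0.477 CPM in HG (-2.23, standard error 0.31, FDR 5.87e-05). With VPA AKR1B10 fell in both media, to 22.1 CPM in LGV (-1.57, FDR 1.56e-06) and 7.64 CPM in HGV (-1.55, FDR 1.26e-05), where AKR1B1 rose. The sequences of AKR1B10 and AKR1B15 are close to each other, and 16.3% and 16.5% of their exonic 50-base windows occur elsewhere in the genome.

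**Figure D3:**
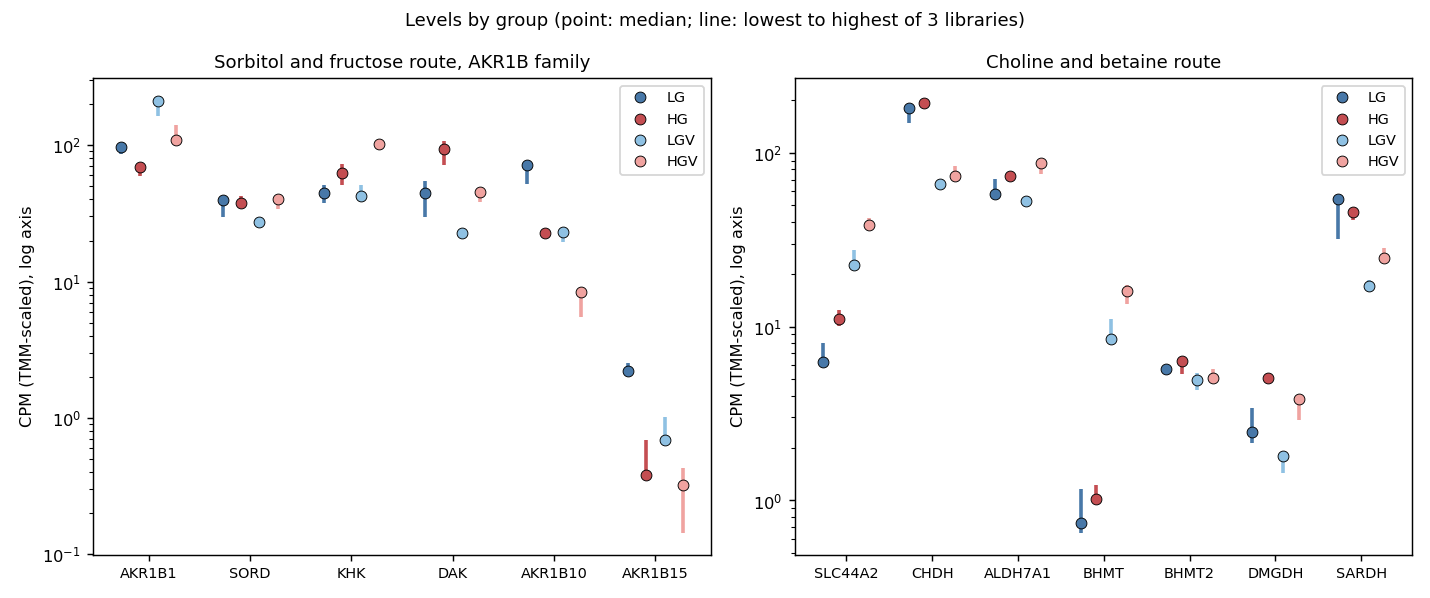
Levels in CPM (vertical log axes) of genes of the sorbitol and fructose route with the AKR1B family (left) and of the choline and betaine route (right), with a point for the median and a line from the lowest to the highest of 3 libraries in each group. AKR1B1 was highest in LGV, where AKR1B10 was below its LG level, and with VPA the BHMT median moved up and the CHDH median down in both media.

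SLC6A12, which imports betaine and GABA, differed most between glucose levels among the 7 genes. It lies on chromosome 12 from 299243 to 323736 on the minus strand (ENSG00000111181). It had 20.4, 25.5 and 16.0 CPM in LG and 2.79, 3.02 and 3.50 CPM in HG. The highest HG library thus lay well under the lowest LG library, and the log2 fold change was -2.71 (standard error 0.20), given here as a description because it was known when the genes were listed. The libraries with VPA were not part of that comparison. The genes were listed with earlier results of these data known, however, so the test of HGV against LGV may not be free of that choice. They held 21.1, 32.4 and 34.8 CPM in LGV and 3.92, 4.45 and 3.29 CPM in HGV. HGV was 7.64-fold lower than LGV (log2 fold change -2.93, standard error 0.19, FDR 1.20e-08), the 7th smallest p of the 16208 genes tested, and every alternative kept this call. In high glucose VPA left the gene within overlapping ranges (0.33, standard error 0.18, FDR 0.170). In low glucose the test called it higher with VPA (0.53, standard error 0.19, FDR 0.0420), although the LGV and LG ranges overlapped. That call was lost without LG replicate 1 (FDR 0.134), LG replicate 3 (0.105), LGV replicate 2 (0.131) or LGV replicate 3 (0.180). No 50-base window of its exons occurred elsewhere in the genome.

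SLC6A6, the taurine transporter, was also lower in HG than in LG. It lies on chromosome 3 from 14444076 to 14530857 on the plus strand (ENSG00000131389). It had 81.3, 82.5 and 74.1 CPM in LG and 43.9, 53.2 and 44 CPM in HG. In cells with VPA it had 68.1, 84.3 and 83.9 CPM in LGV and 74.4, 53.5 and 60.9 CPM in HGV. Each HG library was below all libraries of the other groups, with HGV replicate 2 just above the highest of them. HG was 1.66-fold lower than LG (-0.73, standard error 0.13, FDR 0.000578) under every alternative tried. In high glucose VPA raised it by 1.34-fold (0.42, standard error 0.14, FDR 0.0231), a call lost without HG replicate 1 (FDR 0.0872), HG replicate 3 (0.0913) or HGV replicate 1 (0.28, FDR 0.121). In low glucose the value with VPA was 0.00 (FDR 0.994). HGV against LGV gave -0.34 (standard error 0.14, FDR 0.0533), just outside the threshold, and 6 of 15 alternatives put it inside. GRIP2, whose exons overlap 2.94% of those of SLC6A6 on the other strand, had means of 0.418 to 1.42 CPM.

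The genes of taurine and cysteine metabolism held 8 of 10 listed with a row, and 7 of them were tested in HG against LG. There 3 rose and 1 fell (57.1% called, beside 24.7% of all genes), and in HGV against LGV 4 rose and 1 fell (62.5% beside 40.7%). SLC16A6, of the monocarboxylate transporter family, rose from a mean of 2.52 CPM in LG to 7.30 CPM in HG (1.55, FDR 0.000640) and from 1.98 CPM in LGV to 4.80 CPM in HGV (1.26, FDR 0.000275). CSAD, which decarboxylates cysteine sulfinate on the way to taurine, rose by 0.71 in HG (FDR 0.0131) and by 1.15 in HGV over LGV (FDR 0.000281). CDO1, the cysteine dioxygenase gene one step before it, rose with VPA from 2.66 to 6.62 CPM in low glucose (1.32, FDR 8.59e-05) and from 2.99 to 10.5 CPM in high glucose (1.81, FDR 2.78e-06). With VPA the list as a whole had 2 genes higher and none lower in low glucose (25% called, beside 41.6% of all genes). In high glucose it had 3 higher and 1 lower (57.1% beside 46.1%). Its medians were 0.19 in HG against LG, 0.36 in HGV against LGV, 0.12 in LGV against LG and 0.07 in HGV against HG.

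CHDH and BHMT, the enzymes that make and spend betaine, changed in opposite directions with VPA. The sequences before their start sites are shown because these were the 2 genes with the largest fold changes under VPA. They were taken from RefSeq (GRCh38.p14), whose promoter table matched 4 of the 8 symbols and held none for NFAT5, SORD, SLC6A6 and SLC6A12. The lines give 250 bases before the start of BHMT (chr5:79111559-79111808, plus strand) and 120 bases before that of CHDH (chr3:53846420-53846539, minus strand), stopping short of an exon of IL17RB on the other strand. Capitals mark TATAAA, the motif of a TATA box, where it occurs. They also mark GGGCGG, the core of a GC box, or its reverse complement.
BHMT: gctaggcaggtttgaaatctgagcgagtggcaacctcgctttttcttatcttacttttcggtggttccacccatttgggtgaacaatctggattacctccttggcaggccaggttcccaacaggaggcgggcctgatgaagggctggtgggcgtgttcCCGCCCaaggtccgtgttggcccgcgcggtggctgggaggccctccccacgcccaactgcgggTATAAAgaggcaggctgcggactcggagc
CHDH: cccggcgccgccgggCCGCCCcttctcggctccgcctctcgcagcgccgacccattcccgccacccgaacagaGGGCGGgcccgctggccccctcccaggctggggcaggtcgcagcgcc
BHMT holds TATAAA from 29 to 24 bases before its start and GGGCGG on the opposite strand from 92 to 87 bases before it. CHDH holds GGGCGG from 47 to 42 bases before its start and on the opposite strand from 105 to 100. Of the 35116 promoters in RefSeq's set, each over 250 bases, 10.7% hold TATAAA and 42.6% hold GGGCGG on either strand. The motif CCAAT, held by 32% of them, was not found in either window. The same was true of TGGAAA, the core of the NFAT5 motif, held by 18%, and of the E-box CACGTG, held by 6.34%.

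BHMT (ENSG00000145692, chromosome 5 of GRCh37 from 78407632 to 78428111, plus strand) was low without VPA. It had 1.16, 0.649 and 0.740 CPM in LG and 1.01, 0.987 and 1.23 CPM in HG, from 26 to 44 reads per library. With VPA it had 8.40, 11 and 8.43 CPM in LGV and 13.4, 15.9 and 17.4 CPM in HGV, from 280 to 670 reads. All libraries with VPA lay above all without, and all of HGV above all of LGV. VPA raised BHMT by 11.2-fold in low glucose (log2 fold change 3.49, standard error 0.25, FDR 1.40e-07) and by 14.4-fold in high glucose (3.85, standard error 0.18, FDR 2.24e-08). HGV was 1.66-fold higher than LGV (0.73, standard error 0.16, FDR 0.00141), whereas HG against LG, with overlapping ranges, gave 0.40 (standard error 0.31, FDR 0.359), and 0.67 without LG replicate 1 or 0.26 without LG replicate 2. These 3 calls held under every alternative tried. The exons of DMGDH, the next enzyme of betaine breakdown, cover 6.85% of those of BHMT on the other strand. DMGDH had means of 1.69 to 5.15 CPM and was lower in HGV than in HG (-0.55, FDR 0.0184).

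CHDH (ENSG00000016391, chromosome 3 of GRCh37 from 53846362 to 53880446, minus strand) had 179, 148 and 184 CPM in LG and 200, 185 and 194 CPM in HG. With VPA it had 62.1, 67.7 and 66.3 CPM in LGV and 73.2, 72.1 and 84.0 CPM in HGV. No pair of groups overlapped, with HG highest and LGV lowest. VPA lowered it by 2.59-fold in low glucose (-1.37, standard error 0.12, FDR 8.75e-07) and by 2.52-fold in high glucose (-1.34, standard error 0.10, FDR 6.29e-07), under every alternative tried. The glucose differences were small and did not pass, at 0.20 in HG against LG (FDR 0.237) and 0.21 in HGV against LGV (FDR 0.164), and the second passed with upper quartile factors (FDR 0.0379) or library sizes (FDR 0.0419). The exons of CACNA1D cover 18% of those of CHDH on the opposite strand, and the strand setting of the counting is not given in the sources used here. CACNA1D had means of 1.32 to 2.38 CPM and was called in no comparison.

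Per exon length, as reads per kilobase of exon scaled to library size (RPKM), AKR1B1 was the most abundant of the 7 transcripts with VPA, with means of 53.7 RPKM in LGV and 32.5 RPKM in HGV, beside 8.39 and 9.82 RPKM for CHDH. In HG CHDH was first, with 24.8 RPKM and all libraries above those of AKR1B1 (18.1 RPKM), and in LG their ranges overlapped (21.9 RPKM for CHDH and 25.6 RPKM for AKR1B1). NFAT5 (6.68 to 9.42 RPKM) and SLC6A6 (5.69 to 9.61 RPKM) had lower means than AKR1B1 in each group and exceeded CHDH only in LGV. SORD had 2.25 to 3.16 RPKM. The exon lengths join the exons of all annotated transcripts, and stretches that occur elsewhere in the genome were not taken off. With 60.1% of its windows repeated, the SORD value may be too low, and the order between genes is approximate. SLC6A12 ranged from 0.584 to 5.54 RPKM and BHMT from 0.244 to 4.47 RPKM. In HGV the BHMT mean, 4.47 RPKM, was above the SLC6A12 mean, 0.731 RPKM, and in LG it was below, 0.244 against 3.88 RPKM.

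All 24 listed genes of choline, betaine and methyl transfer had a row. In HG against LG 6 rose and 4 fell (41.7% called, beside 24.7% of all genes), and in HGV against LGV 10 rose and 5 fell (62.5% beside 40.7%). With VPA 2 rose and 9 fell in low glucose (45.8% beside 41.6%), and 3 rose and 8 fell in high glucose (45.8% beside 46.1%). The medians of the 24 were -0.02, 0.15, -0.27 and -0.09 in HG against LG, HGV against LGV, LGV against LG and HGV against HG. SLC44A2, a choline transporter gene, rose with VPA from 6.84 to 23.9 CPM in low glucose (1.82, standard error 0.16, FDR 9.34e-07) and from 11.2 to 38.7 CPM in high glucose (1.79, standard error 0.13, FDR 3.25e-07). CTH, which makes cysteine from cystathionine, fell with VPA by -1.41 (FDR 6.09e-06) and -1.09 (FDR 4.87e-05) and was higher in HG by 0.74 (FDR 0.000765). SARDH, which demethylates sarcosine, fell from 47.4 CPM in LG to 17.2 CPM in LGV (-1.45, FDR 2.04e-05). It also fell from 44.4 CPM in HG to 25.6 CPM in HGV (-0.80, FDR 0.000114). PEMT, which methylates phosphatidylethanolamine to phosphatidylcholine, fell with VPA by -1.13 in low glucose (FDR 5.53e-05) and by -0.93 in high glucose (FDR 0.000150). CHKA, the choline kinase gene, had 173 CPM in LG and 90.8 CPM in HG (-0.91, FDR 0.000265). DMGDH rose in high glucose by 0.96 without VPA (FDR 0.00416) and 1.05 with it (FDR 0.00144).

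The 8 listed inositol genes all had a row. In HG against LG 2 rose and none fell (25% called, beside 24.7% of all genes), and in HGV against LGV 1 rose and 1 fell (25% beside 40.7%). IMPA2, an inositol monophosphatase, was higher in HG by 0.51 (FDR 0.0255) and in HGV over LGV by 0.61 (FDR 0.00471), and lower with VPA by -1.08 (FDR 0.000275) and -0.95 (FDR 8.76e-05). SLC2A13, the proton/myo-inositol cotransporter, rose with VPA from 5.67 to 11.1 CPM (0.98, FDR 0.000348) and from 3.82 to 8.08 CPM (1.08, FDR 0.000347). ISYNA1, which makes inositol phosphate from glucose phosphate, rose by 0.42 (FDR 0.00743) and 0.61 (FDR 0.00129). With VPA the list had 3 higher and 1 lower in low glucose (50% called, beside 41.6% of all genes). In high glucose it had 3 higher and 2 lower (62.5% beside 46.1%). Its medians in HG against LG, HGV against LGV, LGV against LG and HGV against HG were -0.02, -0.05, 0.23 and 0.12.

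Of 25 listed genes of cell volume and tonicity 23 had a row. In high glucose 2 rose and 9 fell without VPA (47.8% called, beside 24.7% of all genes), and 2 rose and 9 fell with it (47.8% beside 40.7%). AQP3, a water and glycerol channel, fell from 82.2 to 36.1 CPM (-1.16, standard error 0.19, FDR 0.000281) and from 219 CPM in LGV to 111 CPM in HGV (-0.997, standard error 0.17, FDR 0.000158). LRRC8A, the obligate subunit of the volume-regulated anion channel, fell from 130 to 66.0 CPM (-0.95, FDR 0.000304) and from 164 to 89.7 CPM (-0.89, FDR 7.84e-05). S100A4 fell from 5.56 to 1.96 CPM (-1.48, FDR 0.000145). With VPA 8 rose and 4 fell in low glucose (52.2% beside 41.6%) and 10 rose and 5 fell in high glucose (65.2% beside 46.1%). The medians of the 23 were -0.12 in both glucose comparisons, 0.25 in LGV against LG and 0.33 in HGV against HG. LRRC8C, another subunit of that channel, rose from 0.662 to 4.09 CPM in low glucose (2.60, standard error 0.27, FDR 3.19e-06) and from 0.582 to 3.81 CPM in high glucose (2.71, standard error 0.27, FDR 5.27e-06). AQP3 rose with VPA by 1.43 (FDR 0.000119) and 1.62 (FDR 2.12e-06). SGK1, a kinase induced by cell shrinkage, fell from 46.2 to 10.8 CPM (-2.08, standard error 0.18, FDR 7.22e-07) and from 46.5 to 16.2 CPM (-1.52, standard error 0.11, FDR 4.12e-07).

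The 5 lists were chosen with earlier results of these data known, so their shares of called genes are only a description. Across the lists, 32 of 69 related genes (46.4%) were called in HG against LG, beside 24.7% of all genes. In HGV against LGV 39 of 70 (55.7%) were called, beside 40.7%. With VPA 34 of 70 (48.6%) were called in LGV against LG, beside 41.6%, and 38 of 69 (55.1%) in HGV against HG, beside 46.1%. Without LG replicate 1, LG replicate 2 or HG replicate 3 the first of these counts was 16, 21 or 18. The count over all genes also moved when a replicate was left out, and its range is given below. The comparisons of HG with LG and of HGV with LGV share no library. All 7 genes, SLC6A12 included as a description, had the same sign in both, as did 59 of 69 related genes and 80.0% of the 15271 genes tested in both. AKR1B1 passed in both, lower in high glucose. The comparisons of LGV with LG and of HGV with HG share no library either. There 6 of 7 genes, 55 of 69 related genes and 81.9% of 15743 genes had the same sign, and AKR1B1, BHMT and CHDH passed in both.

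**Figure D4:**
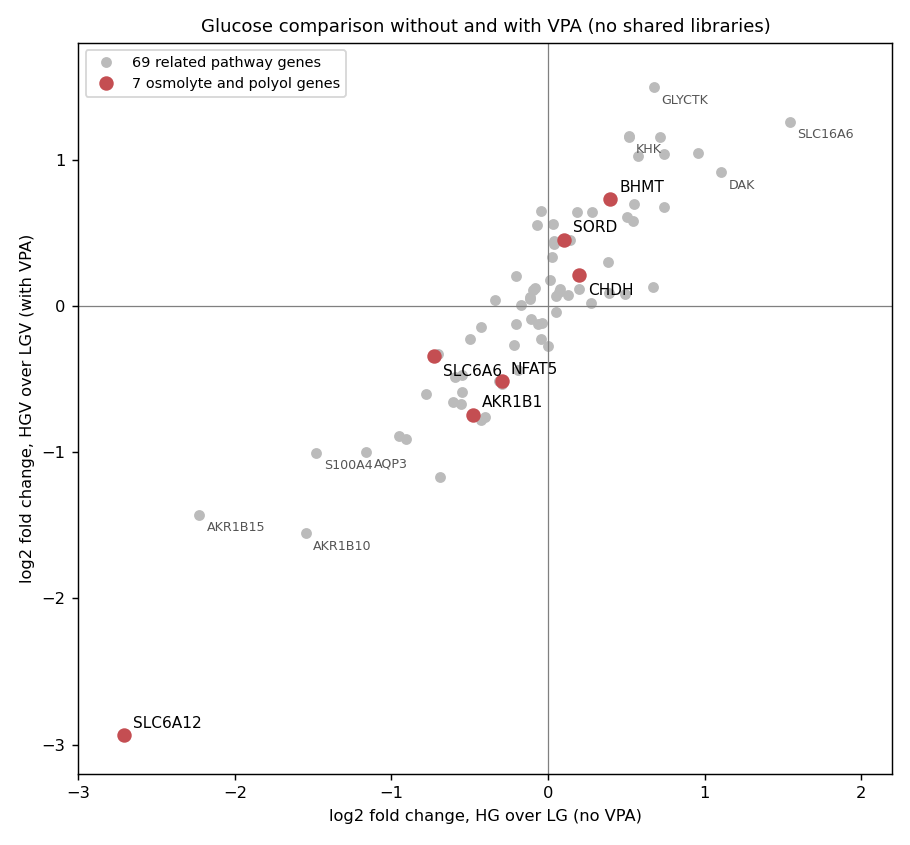
Log2 fold change of HG over LG (horizontal axis) and of HGV over LGV (vertical axis), which share no library, for the 7 osmolyte and polyol genes (large points) and 69 related pathway genes (small points). All 7 lay in the lower left or upper right corner of the plane, with SLC6A12 at -2.71 and -2.93.

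Whether glucose changed the response to VPA was asked with the interaction of both factors over the 12 libraries. None of the 7 genes passed with edgeR's quasi-likelihood test, where 0.0427% of 16389 genes did, and 1 of the 7 had an unadjusted p under 0.05. The likelihood ratio test and DESeq2 also called 0 of the 7. The gene was SLC6A6, whose change with VPA was larger in high than in low glucose (log2 difference 0.43, standard error 0.19, FDR 0.389). SORD had 0.39 (standard error 0.19, FDR 0.441) and BHMT 0.37 (standard error 0.32, FDR 0.719). AKR1B1, SLC6A12, NFAT5 and CHDH lay between -0.22 and 0.05. Of the 70 related genes 0 passed and 10 had an unadjusted p under 0.05.

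The genes whose log2 CPM followed each of the 7 most closely over the 12 libraries, among 11954 genes, are given as a description, since all points share the same libraries and 4 groups. SLC6A12 was followed by the lncRNA gene RP11-242J7.1 (Pearson r = 0.990), USP6NL (0.988) and C9orf78 (0.988). BHMT was followed by CRYM (0.995), GRIN3B (0.994) and C12orf75 (0.994). CRYM, which encodes a thyroid hormone binding protein, had means of 0.987, 1.35, 11 and 19.5 CPM in LG, HG, LGV and HGV. Genes that followed AKR1B1 included TMEM206 (0.983) and TTC13 (0.979), and CHDH was followed by CTDSP1 (0.990), OGFOD3 (0.989) and KAT2A (0.988). TMEM206 encodes the proton-activated chloride channel, and KAT2A a histone acetyltransferase. The closest to SLC6A6 were BCL9L (0.961), SIK1 (0.952) and ZBED4 (0.948), to SORD G6PC3 (0.962), PTGES2 (0.961) and CHID1 (0.960), and to NFAT5 TNRC6B (0.964), ZNF106 (0.961) and PHF3 (0.959).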

How the data were processed

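Poly(A) RNA of the 12 HepG2 libraries was sequenced from one end by the authors, who trimmed the reads, aligned them with STAR to GRCh37 (Ensembl annotation) and counted them per gene with featureCounts above a mapping quality minimum. They deposited raw counts without normalization, with genes averaging fewer than 10 reads per sample left out. Groups came from the sample labels. The strand setting is not given in the sources used here.

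The counts of each comparison were analysed in R 4.3.3 by edgeR 4.0.16 (TMM factors, quasi-likelihood F test, mean count of at least 10). FDR was Benjamini-Hochberg over all genes tested, and 0.05 or less was called. The interaction used 12 libraries. Alternatives were RLE, upper quartile or no scaling factors, the likelihood ratio test, DESeq2 1.42.0, no filter, a filter of 1 CPM in 3 libraries, one fit, replicate number as a block, and each replicate left out.

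Named were the listed genes, genes sharing sequence or exons with them, up to 4 called genes of largest change per related list and comparison, and the 3 genes most alike, of which 1 is not reported here. The members and lists were chosen with earlier results of these data known. The values of KHK in HG against LG and DAK in HGV against LGV lie outside this rule and were chosen after they were seen. The same holds for PEMT in LGV against LG and for SARDH and GLYCTK in HGV against HG. Exons came from GENCODE on GRCh37. Replicate numbers did not pair the samples. Replicates differed beyond counting noise. Figures were drawn with matplotlib 3.10.9.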

Additional observations from a re-analysis of the deposited data

How the results depend on the processing

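Of 560 refits of single genes (7 genes, 5 comparisons), 514 kept the direction and side of the threshold, 16 lost a call, 10 gained one and 20 changed sign, all 20 in values that were not called. The cause of these changes was not tested.

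The values that changed sign were close to 0. SORD in HGV against HG gave 0.039 with upper quartile factors and 0.10 with library sizes, and from -0.074 to 0.065 with a replicate left out. NFAT5 in HGV against HG gave 0.066 with library sizes and from -0.26 to 0.13 with a replicate left out. SLC6A6 in LGV against LG gave -0.0018 with RLE factors and with DESeq2, -0.0037 without a filter, -0.0067 in one fit of 12 libraries and from -0.050 to 0.11 with a replicate left out. With a replicate left out SORD in HG against LG ran from -0.0091 to 0.20 and the interaction of CHDH from -0.024 to 0.11. Leaving out 1 replicate gave 3 to 5 of the 7 genes called in LGV against LG, 16 to 35 related genes and 1933 to 5338 of all genes in HG against LG, and in the interaction 0 to 3 related genes and 1 to 217 of all genes. The interaction over all genes, with 7 calls, had 1 with library sizes, 202 with the likelihood ratio test and 162 with DESeq2, and the last 2 each called 1 related gene.

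With library sizes the median of all genes moved from 0.01 to 0.11 in HG against LG, from -0.01 to 0.16 in LGV against LG and from 0.02 to 0.15 in HGV against HG. The split of calls then moved from 1854 higher and 1959 lower to 2172 and 1297 in HG against LG, from 3461 and 3177 to 4500 and 1956 in LGV against LG, and from 4184 and 3272 to 5182 and 2424 in HGV against HG.

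Samples with the same replicate number did not deviate together in every pair, so the numbers were taken as names. With the replicate block SLC6A6 passed in HGV against LGV (-0.35, FDR 0.0239), its value in LGV against LG was -0.0034, and the interaction called 13 of all genes. The block changed no other call among the 7 genes. Depth limits BHMT most, with 26 to 44 reads per library without VPA.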

Other observations

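Genes next to the 7 genes and related to them by sequence gave values of their own. BHMT2, which lies before BHMT on chromosome 5 (78365590 to 78385892 of GRCh37) and encodes a related methyltransferase, had means of 5.70 CPM in LG, 6.13 CPM in HG, 4.87 CPM in LGV and 5.18 CPM in HGV. It was called in no comparison, and of its exonic 50-base windows 10% occur elsewhere in the genome. SLC6A13, a GABA and taurine transporter gene next to SLC6A12 on chromosome 12 (329787 to 372039), stayed between 0.2 and 0.407 CPM as group means. It was too low to be tested in HG against LG and in HGV against HG, and was not called where it was tested. MRPS6, a mitochondrial ribosomal protein gene whose exons overlap those of SLC5A3 on the same strand on chromosome 21, was lower in HG than in LG (18.9 against 29.0 CPM, log2 fold change -0.60, FDR 0.0324) and in HGV than in LGV (22.5 against 37.1 CPM, -0.74, FDR 0.00411).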
